A study of Mus musculus with 2 samples.

Results

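Genes that make and recycle pyrimidine nucleotides, supply deoxynucleotides and carry folate one-carbon units were compared between BV2 cells kept in DMEM and BV2 cells kept in DMEM/F12. BV2 is an immortalized mouse line derived from microglia, the macrophages of the brain. All cells were plated in DMEM/F12, and a day later their medium was replaced with DMEM or new DMEM/F12. Either one held fetal bovine serum, penicillin and streptomycin. Both cultures were thus given new medium, and only the DMEM cells went to another kind. RNA was taken after 1 d by the methods, while the labels give over 1 day, and 1 Affymetrix Mouse Gene 1.0 ST array was hybridized per medium. The study used DMEM/F12 as a high-nutrient medium in which BV2 cells become elongated, and asked which genes differ there. The gene set was a list of 44 named genes, and 42 of them had at least 1 transcript cluster, a group of probes for one gene, that the array annotation pairs with that gene alone, of 19938 genes so measured in all. Tymp, thymidine phosphorylase, shares its only cluster with Sco2, and Mat2a, which makes S-adenosylmethionine, had no such cluster and was not analysed here.

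Pyrimidine rings are built from carbamoyl phosphate and aspartate up to UMP, or recovered from uridine, cytidine and thymidine by salvage kinases. Ribonucleotide reductase turns ribonucleotides into deoxyribonucleotides for DNA, and thymidylate synthase then makes dTMP with a one-carbon unit from folate. Serine hydroxymethyltransferases load that unit onto tetrahydrofolate in the cytosol and in mitochondria, and methionine synthase, which needs vitamin B12, passes a methyl group from folate to homocysteine. Many of these enzymes are made mainly in dividing cells. Compared with DMEM, DMEM/F12 supplies among other things hypoxanthine and vitamin B12, and the F12 component also contains thymidine, which cells can take up and phosphorylate in place of making dTMP anew.

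Values are log2 expression values as deposited, each difference is the DMEM/F12 value minus the DMEM value, and several clusters of a gene were averaged. Because a single culture stands for each medium, replicate error is unknown, no test was run, and every difference describes these 2 arrays. The medium cannot be told apart from other ways in which the cultures differed, and the array reads RNA levels of whole cultures, in which fewer cells of a kind and less RNA per cell cannot be told apart. As a rough scale, 526 genes have a pair of clusters above background with differing values, and the differences given by both clusters of a gene lay a median of 0.11 apart and within 0.48 of each other for 95% of the genes. These cluster pairs share the same RNA and so leave out the spread between cultures. Background was the 95th percentile of olfactory, vomeronasal and taste receptor clusters, at 4.15 in DMEM and 4.17 in DMEM/F12. Of the 42 genes, 38 were above background on at least 1 array, of which Dpys on the DMEM array only, and Cmpk2, Dpyd, Upb1 and Aldh1l1 were not. The array medians were 4.75 in DMEM and 4.77 in DMEM/F12. Microglial and macrophage markers were above background for 13 of 15 genes, with Tyrobp, Cd68 and Spi1 above 10 on both arrays and P2ry12 and Aif1 not above background, while the markers of other brain cells and fibroblasts had mean values of 3.93 to 4.71 in DMEM and 3.98 to 4.67 in DMEM/F12. Of those markers, 2 of 6 for astrocytes, 1 of 6 for neurons, 4 of 5 for oligodendrocytes and 4 of 5 for fibroblasts were above background. The brightest of them was the astrocyte marker Aldoc, with 9.02 in DMEM and 9.25 in DMEM/F12, above microglial markers such as Cx3cr1 (5.34 and 5.26). The microglial and macrophage markers differed by -0.66 (Tmem119, 6.71 and 6.05) to 0.40 (Trem2), with 6 of 15 lower and 8 higher.

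None of the 42 genes differed by 1.5-fold or more in either direction, where 0.928% of all measured genes were at least that much higher in DMEM/F12 and 0.727% at least that much lower. Below that size the differences leaned to one side. Lower values in DMEM/F12 were found for 29 genes (69%), higher values for 11 and equal values for 2, while 45.5% of all genes were lower. The median difference was -0.10, beside 0.00 over all genes. At 1.2-fold or more, 7 of 42 genes (16.7%) were lower, beside 10.5% of all genes, and 1 was higher, beside 11.2%. That 1 was Cmpk2, whose 2 values lie below background. Among genes above background the shares were 7 of 38 lower by 1.2-fold or more (18.4%, beside 9.67% of all such genes), none higher by that much (beside 9.84%) and 28 of 38 lower by any amount (73.7%, beside 47.4%). The 7 genes were Tyms, Aldh1l2, Umps, Slc19a1, Slc46a1, Dtymk and Mtrr, and at the other end the highest difference of a gene above background was 0.22. Of the 7, only Tyms and Aldh1l2 differed by more than the 0.48 within which 95% of cluster pairs lay. Since 16 of those 38 genes differed by 0.1 or less in size, near the usual gap between both clusters of a gene, the sign of a single small difference carries little weight.

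**Figure D1:**
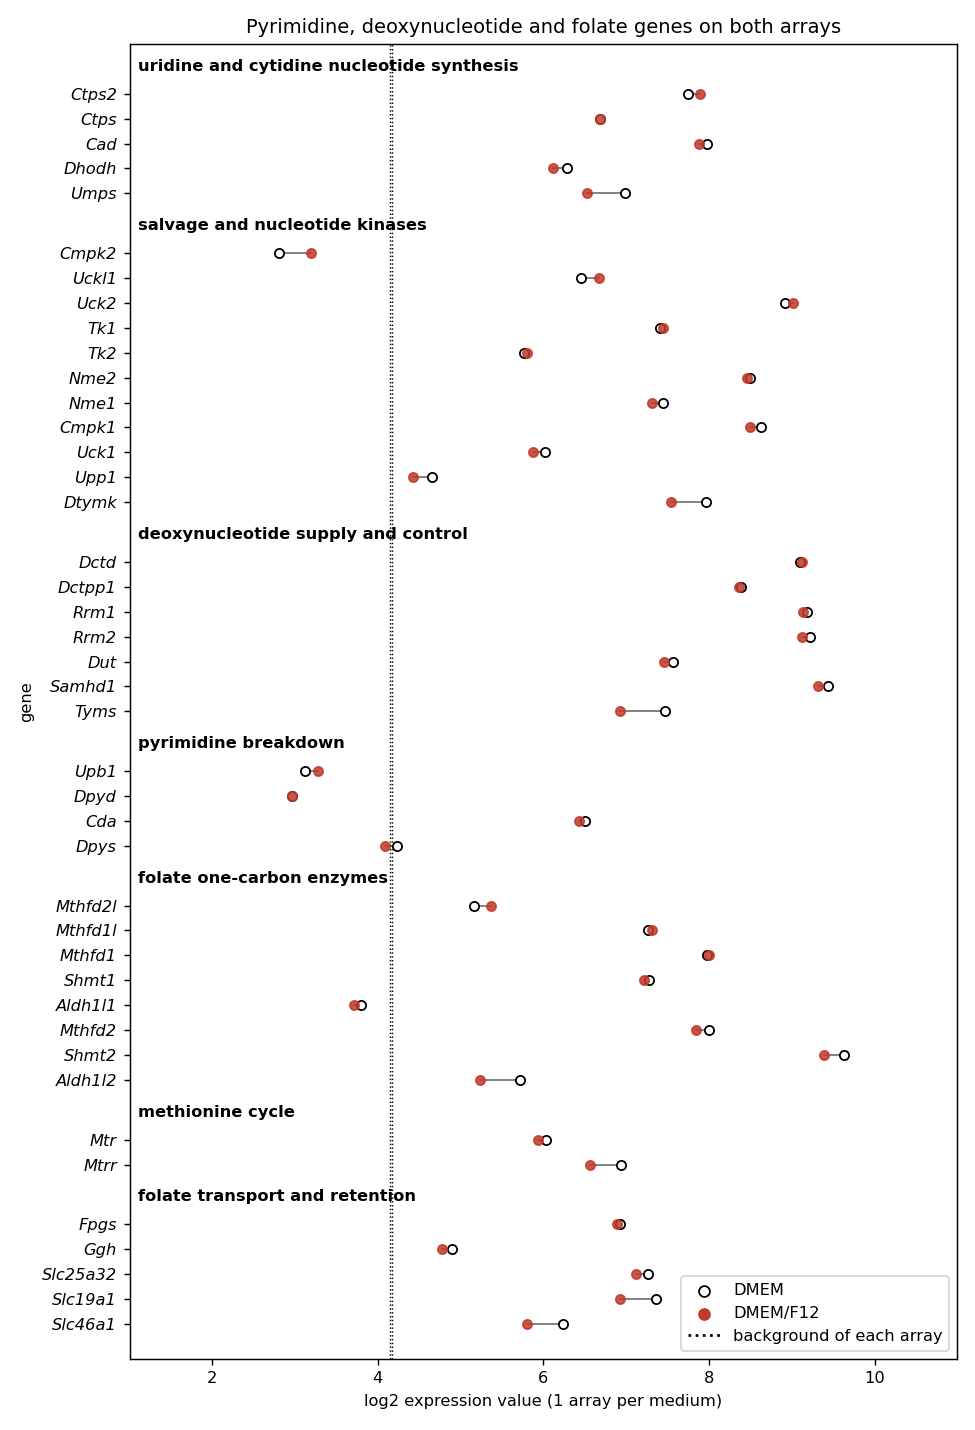
Expression on the log2 scale (x axis) of each of the 42 measured genes (y axis, in italics, grouped by role), with open circles for DMEM and red circles for DMEM/F12 joined by a gray line and dotted lines at the background of each array. The red circle lies left of the open one for 29 genes, with the longest lines for Tyms, Aldh1l2 and Umps, and levels of different genes are not comparable since each has its own probes.

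**Figure D2:**
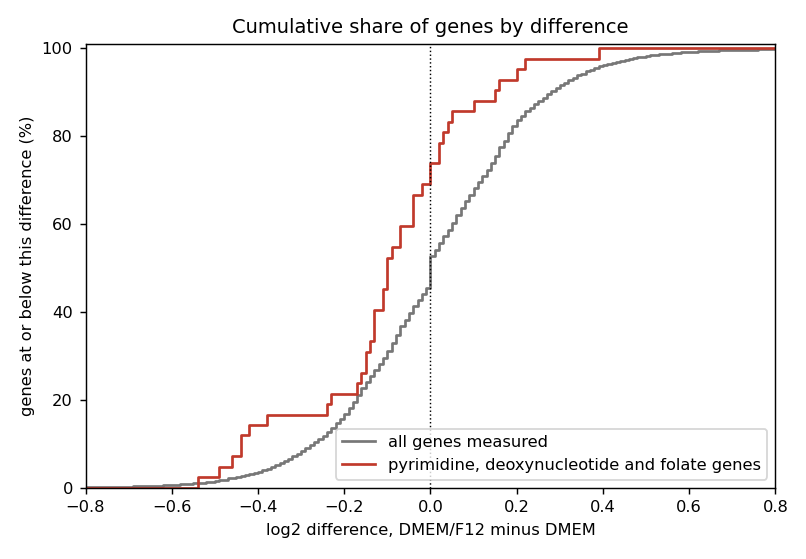
Share of genes (y axis, %) at or below each difference between the media (x axis, log2 scale, DMEM/F12 value minus DMEM value), for the 42 genes (red) and for all 19938 measured genes (gray). The red curve lies above the gray one over most of the range: at a difference of -0.1 it has reached 52.4% and the gray curve 31.0%.

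The thymidylate branch held the lowest difference of the set. Tyms, thymidylate synthase, which methylates dUMP to dTMP, had 7.47 in DMEM against 6.93 in DMEM/F12 (-0.54, 1.45-fold lower). Only 0.877% of the genes above background had a lower difference than that. Dtymk, the kinase that turns dTMP into dTDP, had 7.96 and 7.54 (-0.42, 1.34-fold lower). Both thus had lower values in DMEM/F12, each on the evidence of 1 cluster. Dut, the dUTPase that provides dUMP and keeps uracil out of DNA, differed less, with 7.56 and 7.45 (-0.11). Tk1, the cytosolic thymidine kinase of dividing cells, is measured by 2 clusters that disagreed in sign. The first had 7.41 in DMEM and 7.62 in DMEM/F12, and the other had 7.40 and 7.26. Their mean difference of 0.03 therefore gives no direction. With the brighter cluster alone it was 0.21, but that cluster is the brighter one almost only through its DMEM/F12 value. Tk2, the mitochondrial thymidine kinase, had 5.77 and 5.80.

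The other enzymes of deoxynucleotide supply lay closer together on both arrays. Rrm1, the large subunit of ribonucleotide reductase, had 9.18 in DMEM and 9.14 in DMEM/F12. Its S-phase partner subunit Rrm2 had 9.22 and 9.12 (-0.10). Samhd1, which breaks down dNTPs and restricts retroviruses in myeloid cells, was lower by a similar amount (9.44 and 9.31). Near-equal values were found for Dctd, the dCMP deaminase (9.10 and 9.12), and for Dctpp1, which hydrolyses dCTP and modified cytidine nucleotides (8.38 and 8.36). Of the 7 genes of deoxynucleotide supply and control 6 were lower, beside 45.5% of all genes, with a median of -0.10, but Tyms was the only one past 1.2-fold. Outside the set, Rrm2b, the p53-inducible reductase subunit, differed by -0.29, Dck, deoxycytidine kinase, by -0.25, and Dguok, the mitochondrial deoxyguanosine kinase, by 0.27.

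In the synthesis of UMP and CTP, the largest difference was that of the last enzyme on the route to UMP. Umps, which joins orotate to ribose phosphate and decarboxylates the product to UMP, had 6.99 in DMEM but 6.53 in DMEM/F12 (-0.46, 1.38-fold lower). Cad, the enzyme of the first 3 steps, had 7.98 and 7.88 (-0.10). Dhodh, the mitochondrial dihydroorotate dehydrogenase between them, had 6.28 and 6.11 (-0.17). All 3 genes of the route to UMP were thus lower, beside 45.5% of all genes, and only Umps lay outside the central 90% of all genes, which runs from -0.36 to 0.37. Umps and Cad lie less far apart than the 0.48 within which 95% of cluster pairs lay, so a contrast between the steps is not shown. The CTP synthase genes did not share this direction: Ctps had 6.68 on both arrays, and Ctps2 was slightly higher (7.74 and 7.89).

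The salvage and kinase genes were split, with 6 of 11 lower, beside 45.5% of all genes, 5 higher and a median of -0.04. Among the 10 above background, 6 were lower, beside 47.4% of all such genes, 4 were higher and the median was -0.085. Of the uridine and cytidine kinases, Uck1 had 6.02 in DMEM and 5.87 in DMEM/F12. Uckl1 had the highest difference of any gene of the set above background, with 6.45 and 6.67 (0.22). Uck2 was higher in both of its clusters, by 0.14 (7.31 and 7.45) and by 0.05 (10.52 and 10.57). Upp1, uridine phosphorylase, had 4.65 and 4.42 (-0.23), close to background on both arrays. Cmpk1, the UMP and CMP kinase of the cytosol, had 8.63 and 8.50. The nucleoside diphosphate kinases Nme1 (7.44 and 7.31) and Nme2 (8.50 and 8.46) differed little. They are close homologs, so probes of one can also bind the other's transcript. Cmpk2, a mitochondrial nucleotide kinase induced by interferon, had 2.80 and 3.19, both below background, so its difference of 0.39 gives no direction. Raising both values to background gives 0.02 for any such gene, which is set by the background levels alone.

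Genes of pyrimidine breakdown were mostly dim. Cda, cytidine deaminase, had 6.50 in DMEM and 6.43 in DMEM/F12. Dpys, dihydropyrimidinase, had 4.23 and 4.08, above background in DMEM only. Dpyd, the dehydrogenase that starts uracil and thymine breakdown, had 2.96 on both arrays, and Upb1, which ends the route, had 3.12 and 3.28. With 2 of 4 measured genes below background, the group has no reading beyond Cda and Dpys. The cluster that Tymp shares with Sco2, which cannot be assigned to either, had 6.01 and 5.87.

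**Figure D3:**
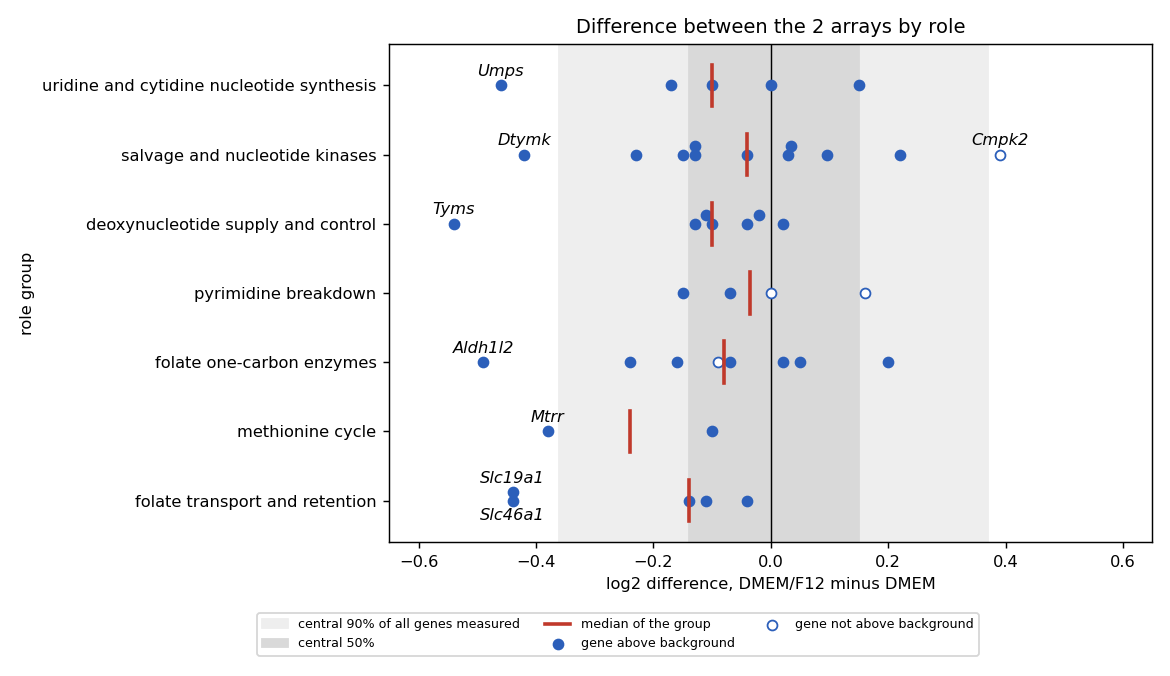
Difference between the media on the log2 scale (x axis, DMEM/F12 value minus DMEM value) for the genes of each role group (y axis). Dots are genes, open where not above background, and red bars are group medians. The darker and lighter gray bands span the interquartile range and the central 90% of all measured genes, and genes past 1.2-fold are named. All 5 genes of folate transport and retention lie below 0, and so do both genes of the methionine cycle, beside 45.5% of all genes.

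Folate transport and retention was the largest role group with every value lower in DMEM/F12, at 5 of 5 genes, beside 45.5% of all genes, and a median of -0.14. Only Slc19a1 and Slc46a1 were lower by 1.2-fold or more. The other differences ran from -0.14 to -0.04, near the median gap of 0.11 between both clusters of a gene, so their signs carry little weight. Slc19a1, the reduced folate carrier of the plasma membrane, is covered by 2 clusters that gave nearly the same difference. They had 8.42 in DMEM and 7.97 in DMEM/F12 (-0.45) and 6.30 and 5.87 (-0.43), so the lower value was measured by 2 sets of probes. Slc46a1, the proton-coupled folate transporter, had 6.24 and 5.80 (-0.44, 1.36-fold lower). These 2 folate transporters were thus lower by the same amount after averaging the clusters. The folate receptor Folr1, outside the set and named after its value was seen, had 4.55 on both arrays, and Folr2 was not above background (3.79 and 3.43). The mitochondrial folate carrier Slc25a32 had 7.26 and 7.12. Fpgs, which adds the glutamate tail that holds folate in the cell, had 6.93 and 6.89. Ggh, the hydrolase that removes that tail, had 4.89 and 4.78. Its 2 clusters hold identical values on each array and were counted as 1 measurement.

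Among the one-carbon enzymes, 5 of 8 were lower, beside 45.5% of all genes, and the mitochondrial ones had differences of both signs. In mitochondria, Aldh1l2, which burns 10-formyltetrahydrofolate to CO2 and yields NADPH, had 5.72 in DMEM against 5.23 in DMEM/F12 (-0.49, 1.40-fold lower). Shmt2, the mitochondrial serine hydroxymethyltransferase, had 9.63 and 9.39 (-0.24), and Mthfd2, the bifunctional dehydrogenase and cyclohydrolase of proliferating cells, had 8.00 and 7.84 (-0.16). These 3 genes had lower values, of which only Aldh1l2 was past 1.2-fold, and the other mitochondrial genes did not. Mthfd1l, which releases formate, had 7.26 and 7.31. Mthfd2l, the paralog of Mthfd2, was higher (5.16 and 5.36, a difference of 0.20). Apart from Aldh1l2, these mitochondrial genes lie less far apart than the 0.48 within which 95% of cluster pairs lay. Opposite directions among them are thus not shown. In the cytosol both enzymes above background were near equal, with 7.28 and 7.21 for Shmt1 and 7.98 and 8.00 for the trifunctional Mthfd1. Aldh1l1, their cytosolic dehydrogenase and a marker of astrocytes, was not above background (3.80 and 3.71).

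Both measured genes of the methionine step were lower, beside 45.5% of all genes. Mtrr, the reductase that keeps the vitamin B12 cofactor of methionine synthase active, had 6.94 in DMEM against 6.56 in DMEM/F12 (-0.38, 1.30-fold lower). Mtr, methionine synthase itself, had 6.03 and 5.93 (-0.10). The larger difference thus lay with the reductase, but both genes lie less far apart than the 0.48 within which 95% of cluster pairs lay.

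The stretches just before the transcription start of the lower genes are printed for the 6 of those 7 with an entry in the promoter table, so that the motif matches counted afterwards can be seen in place. They come from RefSeq on GRCm38.p6, 150 bases ending at the base before the start, 5′ to 3′. Aldh1l2 is the one not shown. Slc19a1 has 2 annotated starts and Mtrr a pair of overlapping ones, of which the first listed is shown. The 150 bases before the second Slc19a1 start hold no match to the 3 motifs marked, and those before the second Mtrr start hold the same 2 matches. Capitals mark matches, on either strand, to the GC box bound by SP1 (GGGCGG), the E-box bound by MYC and USF (CACGTG) and the core of ETS factor sites (CCGGAA), none of which overlap each other here.
Tyms (chr5:30073626-30073775, - strand): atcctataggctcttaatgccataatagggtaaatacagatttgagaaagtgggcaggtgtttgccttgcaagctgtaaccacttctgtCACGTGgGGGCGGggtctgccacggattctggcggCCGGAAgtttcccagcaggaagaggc
Dtymk (chr1:93801935-93802084, - strand): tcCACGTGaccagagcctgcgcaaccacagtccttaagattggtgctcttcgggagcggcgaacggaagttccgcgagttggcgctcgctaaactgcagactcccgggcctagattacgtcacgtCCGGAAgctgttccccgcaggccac
Umps (chr16:33967039-33967188, - strand): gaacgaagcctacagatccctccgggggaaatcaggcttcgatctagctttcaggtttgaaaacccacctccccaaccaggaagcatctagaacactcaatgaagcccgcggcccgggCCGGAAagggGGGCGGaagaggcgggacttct
Slc19a1 (chr10:77032589-77032738, + strand): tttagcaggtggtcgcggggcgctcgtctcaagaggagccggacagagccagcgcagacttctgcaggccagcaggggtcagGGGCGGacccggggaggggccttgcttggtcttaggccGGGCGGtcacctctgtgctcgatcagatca
Slc46a1 (chr11:78465551-78465700, + strand): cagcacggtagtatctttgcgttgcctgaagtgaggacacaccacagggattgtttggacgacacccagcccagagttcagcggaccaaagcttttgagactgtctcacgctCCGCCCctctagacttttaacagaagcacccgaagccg
Mtrr (chr13:68582170-68582319, - strand): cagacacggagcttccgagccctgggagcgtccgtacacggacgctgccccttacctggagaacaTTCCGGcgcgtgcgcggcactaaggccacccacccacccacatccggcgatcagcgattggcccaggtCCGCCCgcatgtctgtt

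Over the 250 bases before each start, GGGCGG was found for 26 of 37 genes of the set with an entry (70.3%), beside 35.4% of all 27025 genes in the table. Among genes above background on these arrays the shares were closer, at 24 of 33 and 61.4%. CCGGAA was found for 13 of 37 (35.1%), beside 13.6% of all genes, and among genes above background for 13 of 33 (39.4%), beside 23.3%. Tyms, Dtymk, Umps and Mtrr were among the 13. CACGTG was found for Tyms, Dtymk and Nme1, or 8.11% beside 6.86% of all genes, while among genes above background it was 3 of 33 (9.09%) beside 9.67%. The letters of the E2F element (TTTCCCGC, TTTCGCGC, TTTGCCGC or TTTGGCGC) and of the ATF4 element (TGATGNAA) occurred in none of the 37 genes' windows, and in 2.16% and 3.91% of all genes (3.71% and 2.34% of those above background). A match or its absence here describes letters in a window and says nothing about binding.

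Other gene lists give the setting of these values, and over all genes 45.5% were lower. Of 40 genes of S phase and E2F targets, which like Tyms and Rrm2 are made mainly in cells that copy their DNA, 28 were lower and 10 higher, with a median of -0.07. The lowest and highest were Prim1, the small DNA primase subunit (-0.73), and Pold2, a subunit of DNA polymerase delta (0.23). Genes of G2 and M phase had a median of -0.05 with 14 of 23 lower, from Cenpe, a mitotic kinesin (-0.54), to Nusap1, a spindle protein (0.44). The replication genes thus leaned the same way as the set, and their part in its values was not tested. Another 32 nucleotide and folate genes outside the set had a median of -0.03 with 20 lower and 8 higher, from the pyrimidine nucleotidase Nt5c3 (-0.36) to the adenylate kinase Ak1 (0.58).

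The remaining lists had medians near 0. The list of serine synthesis and the methionine cycle had a median of 0.01 over 19 genes, 9 lower and 10 higher, with Apip of the methionine salvage pathway at the low end (-0.59) and Cbs, cystathionine beta-synthase, at the high end above background (0.35). Within it, the 3 enzymes of serine synthesis, named here after their values were seen, differed by 0.04 (Phgdh), -0.20 (Psat1) and -0.31 (Psph). Targets of ATF4, the transcription factor of the amino acid response, to which Mthfd2, Shmt2 and Aldh1l2 also answer, had a median of -0.005 over 24 genes, 12 lower and 10 higher, from the amino acid transporter Slc7a5 (-0.43) to the cystine transporter Slc7a11 (0.81). For scale, Fat3, the gene that the study went on to follow, differed by 0.58 as a mean over 15 clusters, with 4.03 in DMEM and 4.60 in DMEM/F12. The DMEM mean lies under the background of 4.15, which was set for single clusters.

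**Figure D4:**
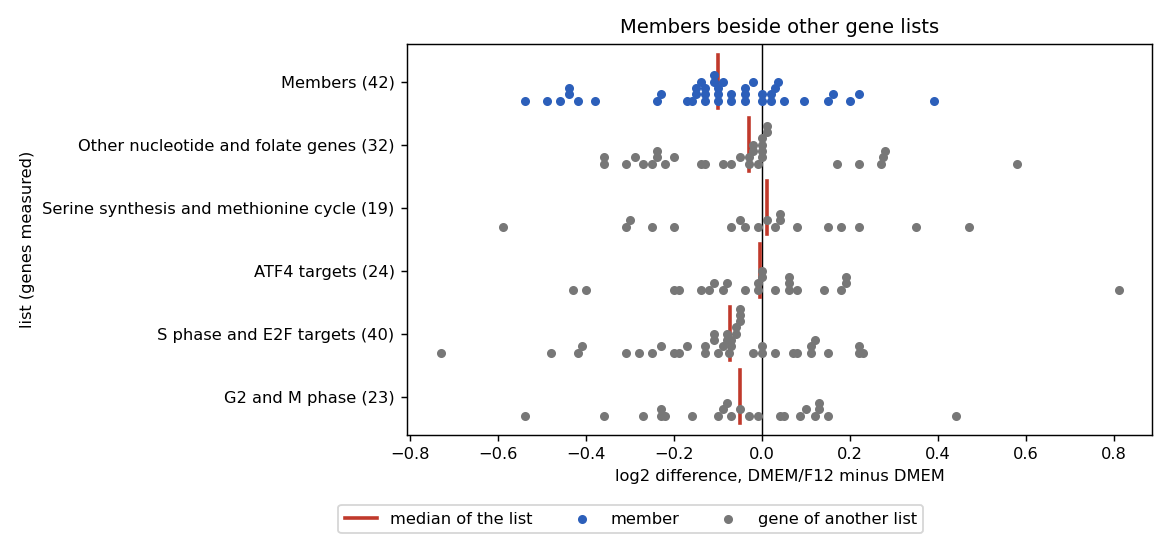
Difference between the media on the log2 scale (x axis, DMEM/F12 value minus DMEM value) for the 42 genes of the set (Members, blue) and of the genes of 5 other lists (gray), each followed by how many of its genes were measured, with red bars at the medians. The medians are -0.10 for the set, -0.07 for S phase and E2F targets and -0.05 for G2 and M phase, with 0.01 for serine synthesis and the methionine cycle.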

How the data were processed

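The authors hybridized RNA of 1 BV2 culture per medium to 1 Affymetrix Mouse Gene 1.0 ST array and deposited log2 values of 28944 transcript clusters with 2 decimals, for which the submitters' processing notes name Expression Console (Affymetrix) and Transcriptome Analysis Console. Tool versions, summarization, array normalization and build were not given in the sources used here. Samples were assigned by the treatment label. The platform annotation paired 21789 clusters with 1 symbol, 1621 with several and 5534 with none. Only the first were used, and all 42 measured genes matched RefSeq of GRCm38.p6 by Entrez number. No value was rescaled or filtered, background rested on 1250 receptor clusters, and the threshold was 1.5-fold, with 2-fold and 1.2-fold as alternatives. The gene set, its role groups, the other lists, the motifs and all thresholds were chosen with earlier results of these data known.

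The rule for naming genes was every measured gene of the set, then Fat3, Rrm2b, Dck and Dguok (2 further genes of the rule were not analysed here), and in each other list the genes above background with the highest and the lowest difference; marker genes and a few others said to be chosen after their values were seen were named in addition. Promoter windows were matched by symbol, for 37 of 42 genes. With 1 array per medium, no significance test was possible, and precision is limited by that number. The steps were tested on simulated data with known 2-fold changes. These are larger than any difference of the set, so that check does not bear on the differences reported here. Alternatives were array medians made equal, quantile normalization, a loess curve (span 0.3), the brightest cluster per gene, clusters with several symbols, only genes above background, values raised to background, and background at the 99th or 90th percentile. Python 3.11.15 with numpy 2.4.6, pandas 2.3.3, statsmodels 0.14.6 and matplotlib 3.10.9 was used.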

Additional observations from a re-analysis of the deposited data

How the results depend on the processing

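No paired analysis was possible because there was only 1 array per medium. Shifts above 0.1 (log2) and changes of a count by over 1.5 times were looked for. The threshold set the counts: 0 genes of the set were past 1.5-fold or 2-fold in either direction, and at 1.2-fold 1 was higher and 7 were lower. Over the other settings 28 to 31 genes were lower and the median of the set lay between -0.12 and -0.085, and no role group median shifted by more than 0.1. These counts are of 42 genes, except that only genes above background left 38, and clusters with several symbols also brought in Tymp. Array medians made equal, quantile normalization and the loess curve shifted no gene by more than 0.03 and left the same 7 genes lowest. Taking the brightest cluster shifted Tk1 alone by more than 0.1, from 0.03 to 0.21. Its clusters were nearly equal in DMEM, so that choice rested on the DMEM/F12 value and is no independent reading. Raising values to background shifted Cmpk2, Upb1 and Aldh1l1, each to 0.02, which turned the sign of Aldh1l1. These genes lie below background on both arrays, so their result there is fixed by the background levels and not by their own values. With background at the 99th or 90th percentile, 35 or 39 genes were above it.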
